A study of Mus musculus with 20 samples.

Results

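The 9 genes described here, referred to as members, encode lipoprotein and sorting receptors that bind or traffic the amyloid precursor protein (APP), with a chaperone and 2 ligands of these receptors. The members are Lrp1, Vldlr, Lrp8, Lrp1b, Sorl1, Sorcs1, Lrpap1, Apoe and Clu. They were chosen by gene name, and all 9 of 9 were found among the 24421 genes counted in each of 20 RNA-seq libraries. The libraries came from mouse neocortex (NCX) and hippocampus (HP) taken at 3 months, and each genotype had 5 libraries in each region. The cTKO mice carried floxed App, Aplp1 and Aplp2 alleles and a Camk2a-Cre transgene, which deletes the 3 genes postnatally in excitatory neurons of the forebrain. The littermate controls, labelled wild type, carried the same floxed alleles without Cre, and mice of both sexes on a C57BL/6J and 129 hybrid background were used. Other cells of the tissue kept the 3 genes, so the libraries measure a mixture of deleted and intact cells. In bulk tissue, fewer cells of a type and less RNA per cell cannot be told apart. Per the study's methods, both regions were dissected from the same 5 cTKO and 5 littermate control mice, so libraries of one group come from separate animals and the regions share animals.

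Receptors of the low density lipoprotein (LDL) receptor family take up lipoproteins and other ligands by endocytosis, and several of them bind APP and move it towards or away from the endosomes where it is cleaved. LRP1 is a large endocytic receptor for apolipoprotein E (ApoE), and LRP1B is its slowly internalised relative. VLDLR and LRP8 (ApoER2) are the reelin receptors, which signal through DAB1 and guide neuronal layering and synaptic function. SORL1 (SorLA) and SORCS1 belong to the VPS10P-domain sorting receptors, which hold APP in or return it to the Golgi with the help of the retromer. LRPAP1 (RAP) is the chaperone of the endoplasmic reticulum that keeps newly made LDL receptor family proteins from binding ligands too early. ApoE and clusterin (Clu) are lipid-carrying ligands of these receptors, made in the brain largely by astrocytes, and APOE, CLU and SORL1 are risk loci for Alzheimer's disease.

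The total per library was 12169474 to 25331954 counts, and TMM factors lay between 0.959 and 1.05. The least abundant member in any library had 254 counts, so none was limited by depth near the limit that a count of 0 allows, and all 9 passed the filter on low values in every comparison. App, Aplp1 and Aplp2 fell in cTKO mice in both regions, with no overlap between genotypes. For App the log2 fold change was -2.10 in cTKO neocortex and -1.78 in cTKO hippocampus. The largest share of the signal left was for Aplp2 in the hippocampus, at 0.421 of the control level. cTKO neocortex library 5 and cTKO hippocampus library 4 stood apart in embryonic markers (Hbb-bh1, Hbb-y, Hba-x, H19 and Igf2), which summed to 996 and 611 CPM, the count scaled to the TMM-adjusted library total, respectively, whereas the other 8 cTKO libraries had 49.6 to 171 CPM and the controls 55.2 to 383 CPM. Excitatory neuron markers were detected in every library, with sums of 6569 to 10410 CPM. Camk2a, 1 of those 5 markers, was 5894 ± 273 CPM (SD, n = 5) in control and 4705 ± 608 CPM in cTKO neocortex. Slc17a7, another of them, was 1515 ± 92.8 and 1746 ± 287 CPM, and the log2 fold change there was positive for 3 of the 5. No marker of any list was at 0 throughout a group.

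The annotation (GENCODE M21, GRCm38) places the members on 8 chromosomes, and their exons sum to between 2138 bases for Apoe and 23774 bases for Lrp1b. The gene of Sorcs1 lies on chr19:50143299-50678646 on the minus strand, and that of Lrpap1 on chr5:35091501-35105766 on the minus strand. In these 2 genes the hippocampal levels of the genotypes did not overlap, and Sorcs1 alone passed the main threshold described below. The stretches before their starts are shown for that reason. RefSeq (GRCm38.p6) promoter entries were matched for 7 of 9 members, and Lrp1b and Clu had none. The 250 bases before the RefSeq start are printed 5′ to 3′ on the gene's strand, and capitals mark each GC box (GGGCGG on either strand), the sequence bound by Sp1. Sorcs1 covers chr19:50678647-50678896 and Lrpap1 covers chr5:35105700-35105949.
Sorcs1: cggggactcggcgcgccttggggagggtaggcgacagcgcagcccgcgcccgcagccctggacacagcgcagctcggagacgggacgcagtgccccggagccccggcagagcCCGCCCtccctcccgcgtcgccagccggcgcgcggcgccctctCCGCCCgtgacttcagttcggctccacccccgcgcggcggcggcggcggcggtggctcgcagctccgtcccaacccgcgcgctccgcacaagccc
Lrpap1: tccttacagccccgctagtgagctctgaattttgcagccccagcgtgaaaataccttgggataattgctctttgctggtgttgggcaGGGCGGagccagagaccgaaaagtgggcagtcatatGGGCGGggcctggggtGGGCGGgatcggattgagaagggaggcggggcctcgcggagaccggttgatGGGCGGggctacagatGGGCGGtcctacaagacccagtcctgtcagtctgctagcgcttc
The Sorcs1 stretch held 2 GC boxes and the Lrpap1 stretch held 5. By the GENCODE annotation the Lrpap1 gene starts farther upstream, so the last 67 bases of its stretch, with 2 of the GC boxes, lie inside that gene. A GC box was found in 5 of the 13 promoter entries of the 7 members (38.5%), near the 35.6% of all 32817 promoters of the same length. CG dinucleotides numbered 50 in the full entry of 300 bases for Sorcs1, and 99.1% of promoters had fewer. For Lrpap1 the number was 18, and 70.3% of promoters had fewer. Over both strands the other letters searched were TATAAA (13.6% of all promoters), CCAAT (37.4%), CACGTG (7.15%), TGACGTCA (1.79%), TGAGTCA (5.20%) and TCACNCCAC (1.24%), and neither Sorcs1 nor Lrpap1 held any of them.

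Levels of different genes were compared as RPKM, the CPM divided by the kilobases of exon, because the members differ in length. The lipid-carrying ligands stood far above the receptors. Apoe was at 543 ± 63.1 RPKM (SD, n = 5) and Clu at 247 ± 27.1 RPKM in control neocortex. Lrp1 followed at 36.1 ± 1.54 RPKM and Lrpap1 at 34.8 ± 1.13 RPKM, and these 2 overlapped in the ranges of their libraries. Below them came Sorl1 at 21.3 RPKM, Lrp8 at 11.5 RPKM, Vldlr at 9.71 RPKM, Sorcs1 at 7.15 RPKM and Lrp1b at 2.17 RPKM, each separate from its neighbours.

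In control hippocampus the order of the receptors differed. Lrpap1 at 41.1 ± 1.50 RPKM stood above Lrp1 at 20.7 ± 1.80 RPKM without overlap, whereas Lrp1 and Sorl1 (18.7 ± 1.73 RPKM) overlapped, as did Vldlr (8.76 RPKM) and Lrp8 (8.61 RPKM). Sorcs1 was the lowest member there, at 1.55 ± 0.110 RPKM, and did not overlap with Lrp1b at 2.33 ± 0.267 RPKM. In cTKO hippocampus Sorcs1 (2.29 ± 0.248 RPKM) and Lrp1b (2.15 ± 0.415 RPKM) overlapped. In cTKO neocortex Lrpap1 (35.0 RPKM) and Lrp1 (32.2 RPKM) again overlapped, and so did Vldlr (9.51 RPKM) and Sorcs1 (7.80 RPKM).

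**Figure D1:**
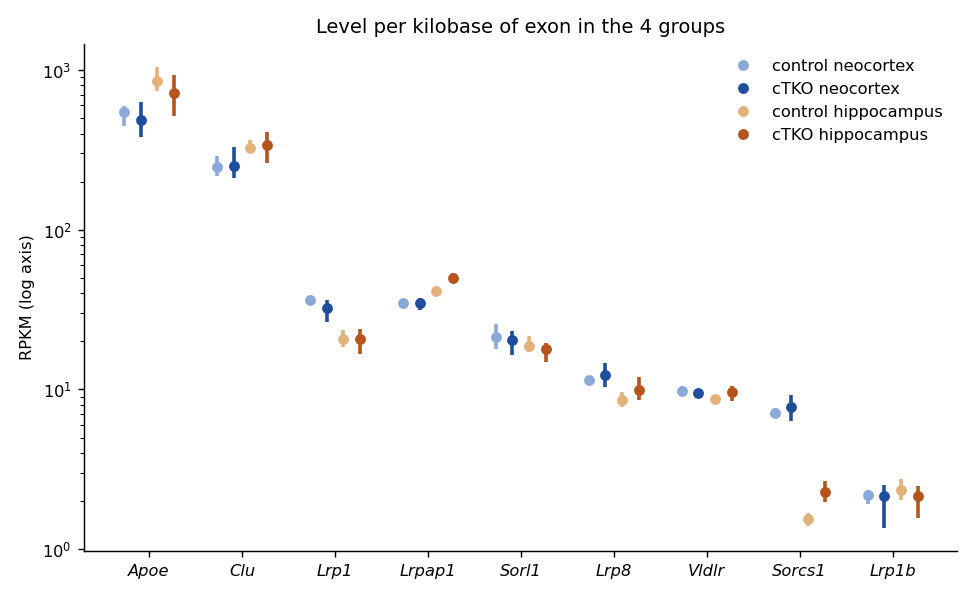
Level of each member per kilobase of exon in the 4 groups, with RPKM on a log axis, points for the mean of 5 libraries and lines for their lowest and highest value. Apoe and Clu stand above all receptors in each group, and Sorcs1 is 7.15 RPKM in control neocortex but 1.55 RPKM in control hippocampus.

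**Figure D2:**
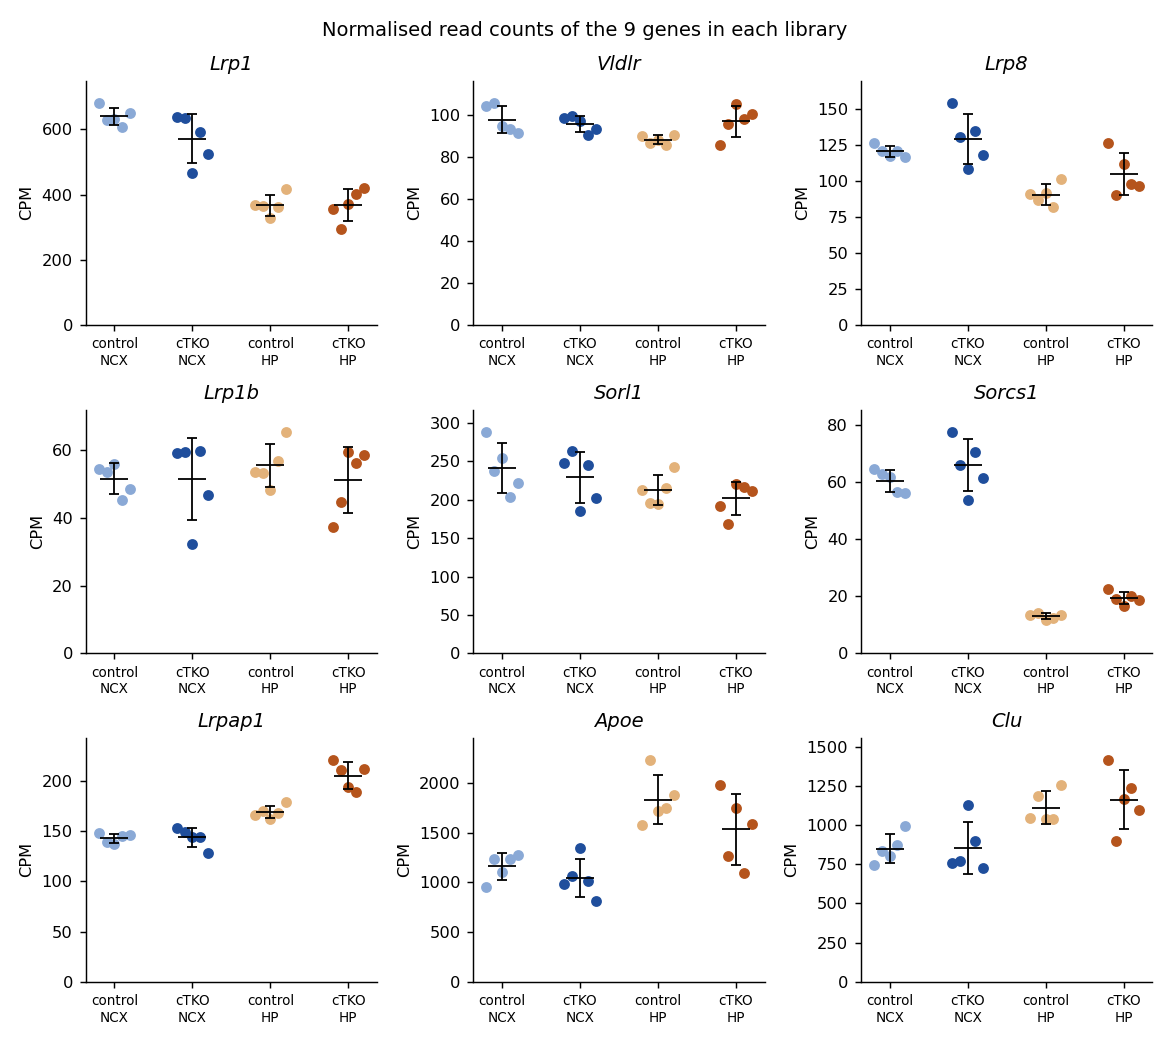
Normalised read counts (CPM, linear axis from 0) of each member in each of 20 libraries by group, where NCX is neocortex and HP hippocampus, with the mean and SD of 5 libraries as black marks. Sorcs1 separates the regions and, in HP, the genotypes, and Lrpap1 is highest in cTKO HP, at 189 to 221 CPM.

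The first comparison asked whether loss of the APP family in excitatory neurons changed the expression of the members in the neocortex. None of the 9 members passed the false discovery rate (FDR) of 0.05 with the quasi-likelihood test of edgeR, none reached an unadjusted p of 0.05, and in none were the groups separate. The edgeR exact and likelihood ratio tests and DESeq2 also placed 0 members past the threshold. Among all 13843 genes tested, 0.188% passed the FDR threshold, 10.4% had an unadjusted p under 0.05 and 2.39% had groups that did not overlap. The 26 genes behind the first share became 7 to 133 without single libraries. The median log2 fold change (log2 FC) of the members was 0.0057, against 0.0062 over all genes tested.

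Lrp1 showed the lowest FDR of the members. Its levels in libraries 1 to 5 were 681, 628, 632, 608 and 651 CPM in controls against 640, 636, 466, 592 and 523 CPM in the cTKO group. The log2 FC was -0.16, with a 95% confidence interval from -0.33 to 0.02 (FDR = 0.527), and the groups overlapped. For Lrp1 the two-sided p of the exact permutation test was 0.0873. Sorcs1 had the largest positive difference, at 60.4 ± 3.75 CPM in controls against 65.9 ± 9.04 CPM in the cTKO group (log2 FC 0.13, interval -0.05 to 0.32). Among the reelin receptors, Vldlr was 97.8 ± 6.53 CPM in controls against 95.8 ± 3.83 CPM in the cTKO group, with an interval for its log2 FC from -0.15 to 0.10. Lrp8 was 121 ± 3.78 CPM and 129 ± 17.3 CPM, with an interval from -0.07 to 0.28. For Sorl1 (241 ± 32.6 and 229 ± 33.6 CPM) the interval ran from -0.29 to 0.16.

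The remaining 4 members were the chaperone, the receptor Lrp1b and both ligands. The chaperone Lrpap1 was 143 ± 4.64 CPM in controls against 144 ± 9.41 CPM in the cTKO group, and its interval of -0.11 to 0.14 was the narrowest of the 9. Lrp1b, at 51.6 ± 4.46 and 51.5 ± 12.1 CPM, had the widest interval, from -0.30 to 0.31. Apoe was 1161 ± 135 and 1044 ± 193 CPM (log2 FC -0.15, interval -0.40 to 0.10) and Clu was 849 ± 93.1 and 855 ± 166 CPM (log2 FC 0.02, interval -0.23 to 0.27). These intervals bound the differences that 5 libraries a group could have missed, and they do not show equality.

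In the hippocampus, Sorcs1 rose in cTKO mice, and it was the only one of the 9 members past an FDR of 0.05. Among all 13702 genes tested there, 0.489% passed that threshold, which is 67 genes, and 15 to 149 without single libraries. Sorcs1 levels in libraries 1 to 5 were 13.6, 14.1, 11.8, 12.5 and 13.3 CPM in controls against 22.4, 18.99, 16.7, 20.02 and 18.7 CPM in the cTKO group. Every cTKO library was above every control library. The mean moved from 13.1 ± 0.925 to 19.3 ± 2.09 CPM (SD, n = 5), which is a log2 FC of 0.57 with a standard error of 0.092 and a 95% confidence interval from 0.37 to 0.77 (FDR = 0.0186). On the linear scale this is 1.49-fold, with an interval from 1.29 to 1.71. The exact permutation test of log2 CPM gave p = 0.00794, two-sided, the smallest value that 5 libraries against 5 can give.

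Leaving out control hippocampus library 1, 3 or 4 moved the FDR of Sorcs1 to 0.0569, 0.0567 and 0.0683, respectively, and its log2 FC stayed between 0.51 and 0.62 without any one of the 10 libraries. Without cTKO hippocampus library 4, which stood apart, the FDR was under 0.05. The cortical neuron gene Tbr1, which like Sorcs1 had a higher level in neocortex than in hippocampus, was 66.9 ± 7.72 CPM in control and 57.1 ± 14.8 CPM in cTKO hippocampus, and the groups overlapped. Of the 5 excitatory neuron markers, 2 had a positive log2 FC there, with Slc17a7 at 1562 ± 100 and 1818 ± 185 CPM. Of 5 interneuron markers (Gad1, Gad2, Slc32a1, Pvalb and Sst), 3 had a positive log2 FC, at 0.30 for Gad2 (FDR = 0.0897). The part of tissue composition in the Sorcs1 values was not tested.

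Lrpap1 was the other member whose hippocampal groups were separate. Its levels in libraries 1 to 5 were 166, 170, 162, 168 and 179 CPM in controls against 221, 211, 194, 189 and 212 CPM in the cTKO group. The lowest cTKO library thus lay above the highest control library, with means of 169 ± 6.18 and 205 ± 13.2 CPM. The log2 FC was 0.29 with a standard error of 0.058 (interval 0.16 to 0.41), and the FDR of 0.0568 did not pass the threshold. The exact permutation test again gave its smallest p of 0.00794. Separate groups were found for 3.01% of all genes tested in the hippocampus, and for 2 of the 9 members. The edgeR likelihood ratio test (FDR = 0.00649), DESeq2 (adjusted p = 9.35e-05) and a fit without cTKO hippocampus library 4 (FDR = 0.0433) placed Lrpap1 past the threshold. The likelihood ratio test and DESeq2 passed 259 and 331 of all genes there, against 67 in the main fit. With the replicate number as a block, Lrpap1 did not pass, though libraries of the genotypes share only that number.

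Both reelin receptors had unadjusted p-values under 0.05 in the hippocampus and neither passed the FDR. Vldlr levels in libraries 1 to 5 were 90.1, 86.8, 88.0, 85.7 and 90.6 CPM in controls against 85.5, 95.8, 105, 98.2 and 100.3 CPM in the cTKO group (log2 FC 0.14, FDR = 0.383). In the cTKO group 4 of 5 libraries lay above all controls, and library 1 lay below them all. Lrp8 was 90.6 ± 7.16 and 105 ± 14.4 CPM (log2 FC 0.22, FDR = 0.372), and its highest library, cTKO library 1 at 126 CPM, was the one with the lowest Vldlr. With Sorcs1 and Lrpap1 this made 4 of 9 members higher in cTKO mice at an unadjusted p under 0.05, against 6.13% of all genes tested, and no member was lower at that p.

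The endocytic receptors showed no shared direction in the hippocampus. Lrp1 was 367 ± 32.0 CPM in controls against 369 ± 48.7 CPM in the cTKO group, with an interval for its log2 FC from -0.19 to 0.22. Lrp1b was 55.5 ± 6.35 and 51.2 ± 9.87 CPM (log2 FC -0.11) and Sorl1 was 212 ± 19.6 and 202 ± 21.6 CPM (log2 FC -0.07). Apoe had the lowest log2 FC of the members, -0.25 with an interval from -0.57 to 0.06 (FDR = 0.539). Its libraries 1 to 5 held 1581, 2231, 1723, 1744 and 1879 CPM in controls against 1976, 1267, 1747, 1095 and 1591 CPM in the cTKO group, so the groups overlapped over much of their range. Clu was 1111 ± 104 and 1161 ± 190 CPM (log2 FC 0.07). The median log2 FC of the 9 members was 0.07, against 0.0049 over all genes tested.

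Astrocyte markers are given beside the 2 ligands made by these cells. The sum of 6 astrocyte markers ran from 2098 to 2651 CPM in control hippocampus and from 2038 to 4952 CPM in cTKO hippocampus, and Gfap, the intermediate filament of reactive astrocytes, from 333 to 557 and from 427 to 3076 CPM. cTKO hippocampus library 4 had the most Gfap and the least Apoe, and its Clu was 1239 CPM. Library 1 of that group, with the highest Apoe and Clu, had the second highest marker sum, 3326 CPM. The median log2 FC of the 6 markers in the hippocampus was -0.07. Slc1a3, the astrocyte glutamate transporter, was 1045 ± 88.8 CPM in controls against 909 ± 156 CPM in the cTKO group. The part of astrocytes in the Apoe values was not tested.

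**Figure D3:**
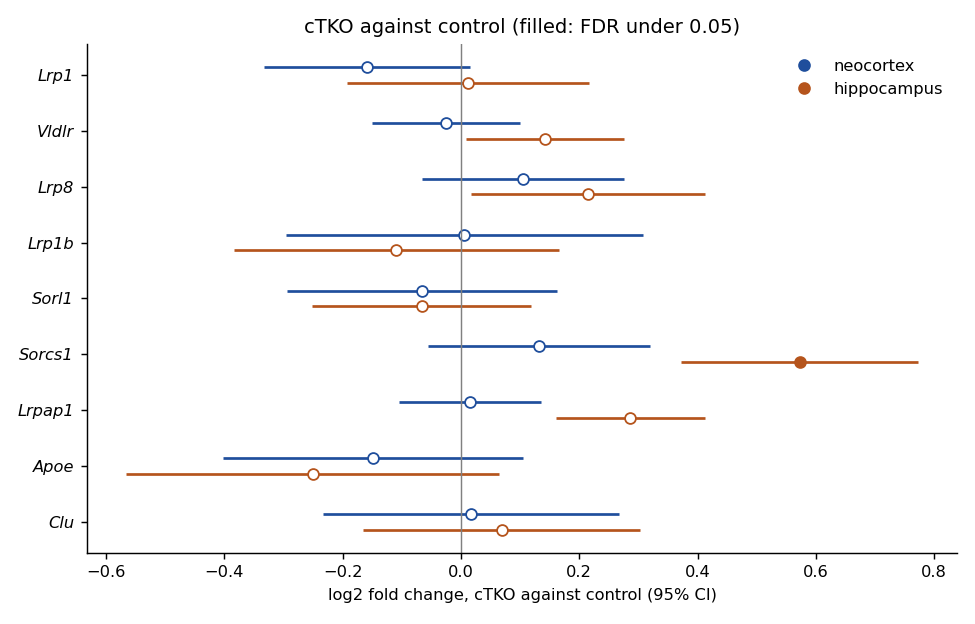
Log2 fold change of each member in cTKO mice against controls, with 95% confidence intervals, for neocortex and hippocampus, and filled points for an FDR under 0.05. Sorcs1 in the hippocampus, at 0.57, is the filled point, and the intervals of hippocampal Lrpap1, Vldlr and Lrp8 also lie above 0.

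Whether the genotype difference itself differed between regions was tested as an interaction over all 20 libraries. None of the 9 members passed an FDR of 0.05, and 0.0564% of the 14192 genes tested did. Likelihood ratio test and DESeq2 counts were 0 as well. An unadjusted p under 0.05 was found for 3 members, against 3.75% of all genes, and for each the difference was higher in the hippocampus. For Sorcs1 the difference of differences was 0.44 on the log2 scale, with a standard error of 0.13 (interval 0.18 to 0.71, FDR = 0.535). For Lrpap1 it was 0.27 with a standard error of 0.080 (interval 0.11 to 0.44, FDR = 0.540), and for Vldlr 0.17. A difference of the Sorcs1 rise between hippocampus and neocortex was thus not shown after adjustment.

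The spread between libraries of one group was also described. The coefficient of variation was larger in cTKO than in control libraries for 8 of 9 members in the neocortex and for 9 of 9 in the hippocampus. Over all genes that passed the filter on low values, it was larger in cTKO libraries for 70.4% in the neocortex and 74.3% in the hippocampus. For Lrp1 in the neocortex it was 4.27% in controls and 13.2% in cTKO mice, and for Lrp1b 8.66% and 23.4%.

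Single libraries moved the members in opposite directions. cTKO neocortex library 3 had the lowest value of its group for 5 receptors (Lrp1, Lrp8, Lrp1b, Sorl1 and Sorcs1) and the highest for both ligands. Its Lrp1b was 32.3 CPM, against 46.8 to 59.8 CPM in the other 4 libraries, and its Apoe was 1344 CPM, against 813 to 1068 CPM. In cTKO hippocampus library 1, Apoe (1976 CPM) and Clu (1414 CPM) were highest as well, and so were Lrp8, Sorcs1 and Lrpap1, while Lrp1b (37.2 CPM) and Vldlr (85.5 CPM) were lowest. Control hippocampus library 5 had the highest value for 7 of the 9 members and library 3 the lowest for 6.

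**Figure D4:**
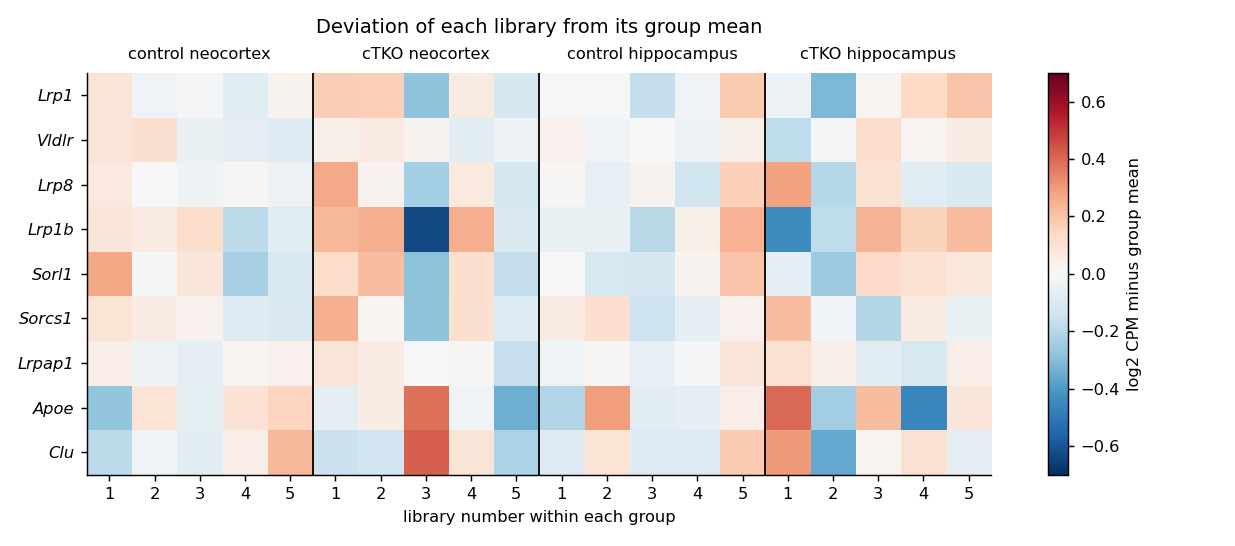
Deviation of each library from the mean of its group in log2 CPM, for the 9 members (rows) and 5 libraries in each of 4 groups (columns). The strongest negative cell is Lrp1b in cTKO neocortex library 3, at -0.63, where Apoe is at 0.38 and Clu at 0.42.

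The second question was how the members differ between the regions. Regions were compared within each genotype, and the 2 comparisons share no libraries with each other, though each shares libraries with the genotype comparisons. The neocortex and hippocampus of a genotype came from the same mice, and the fits here and for the interaction treat their libraries as independent, since the sources used here do not state which libraries belong to one mouse. With the replicate number as a block, 8 members passed in controls, 6 in cTKO mice and 0 for the interaction. Over all genes, 8468 of 13832, 5803 of 13846 and 18 of 14192 passed with that block, respectively. Neocortical RNA was extracted with the RNeasy Plus Universal Kit and hippocampal RNA with the RNeasy Plus Mini Kit, so region and kit cannot be told apart. In controls, 7 of the 9 members passed an FDR of 0.05, which 59.0% of all 13832 genes tested did as well. Of these, 3 were higher in the hippocampus (29.4% of all genes) and 4 were lower (29.5%). The median log2 FC of the members was -0.16, against 0.0079 over all genes tested. In cTKO mice 6 of 9 passed, against 41.3% of 13846 genes, with 3 higher (20.2% of all genes) and 3 lower (21.1%). No test was made of the members' count against that of all genes.

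Sorcs1 had the largest difference between regions. In controls it was 64.5, 62.8, 61.7, 56.7 and 56.2 CPM in neocortex libraries 1 to 5, and no hippocampal library was above 14.1 CPM. The log2 FC for hippocampus against neocortex was -2.22, with a standard error of 0.067 (FDR = 1.89e-12), which leaves 0.215 of the neocortical level. Of all genes tested, 1.59% had a larger difference in either direction. In cTKO mice, with 53.8 to 77.7 CPM in neocortex and 16.7 to 22.4 CPM in hippocampus, the log2 FC was -1.78 with a standard error of 0.109 (FDR = 1.37e-07), or 0.291 of the neocortical level. The most similar genes over the 20 libraries, by root mean square difference of centred log2 CPM, were Camk2d at 0.205 and Dpp10 at 0.265, where the SD of Sorcs1 itself was 1.02.

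Among the LDL receptor family members, Lrp1 was lower in the hippocampus in both genotypes. Its level in controls was 640 ± 27.3 CPM in neocortex and 367 ± 32.0 CPM in hippocampus (log2 FC -0.81, SE 0.058, FDR = 1.61e-08), and the groups did not overlap. In cTKO mice it was 571 ± 75.2 and 369 ± 48.7 CPM (log2 FC -0.64, FDR = 0.00059). The genes most like Lrp1 were Dync1h1, at a root mean square difference of 0.073, and Gm15800, at 0.080. Lrp8 was also lower, at 121 ± 3.78 and 90.6 ± 7.16 CPM in controls (log2 FC -0.42, FDR = 1.03e-05) and 129 ± 17.3 and 105 ± 14.4 CPM in cTKO mice (log2 FC -0.31, FDR = 0.0351), where the groups overlapped. That call in cTKO mice was lost without neocortex library 1, 2 or 4 or hippocampus library 2, 4 or 5, with an FDR of up to 0.0906, and the log2 FC lay between -0.39 and -0.25 over the 10 fits that left out 1 library.

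Vldlr differed between regions in controls alone by the FDR, and the 2 results were not shown to differ, since its interaction did not pass adjustment. It was 97.8 ± 6.53 and 88.2 ± 2.12 CPM in controls (log2 FC -0.16, FDR = 0.0152), an interval from -0.27 to -0.05. In cTKO mice it was 95.8 ± 3.83 and 97.0 ± 7.35 CPM (log2 FC 0.01, interval -0.14 to 0.15). Leaving out control neocortex library 2 moved the FDR in controls to 0.0539. Lrp1b was 51.6 and 55.5 CPM in controls (log2 FC 0.09, FDR = 0.311) and 51.5 and 51.2 CPM in cTKO mice (log2 FC -0.02), and it did not pass in either.

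Sorl1 was close to the threshold between regions. Its control neocortex libraries 1 to 5 held 289, 238, 254, 204 and 221 CPM, and its control hippocampus libraries held 212, 196, 195, 215 and 243 CPM, so the groups overlapped. The log2 FC was -0.19, with an FDR of 0.0587 in controls, and -0.20 with an FDR of 0.165 in cTKO mice. Over all genes, deviations of the same-numbered control libraries of the 2 regions correlated (r = 0.129 to 0.334). That correlation is not a value of Sorl1, for which library 1 was highest in neocortex and library 5 in hippocampus. With the replicate number as a block the FDR of Sorl1 in controls was 0.0477, which brought the members past the threshold to 8. Without the block, leaving out control hippocampus library 5 or control neocortex library 4 or 5 moved the FDR of 0.0587 to 0.0206, 0.0159 and 0.0461, respectively.

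Lrpap1 was higher in the hippocampus in both genotypes. In controls it was 143 ± 4.64 CPM in neocortex and 169 ± 6.18 CPM in hippocampus (log2 FC 0.23, SE 0.044, FDR = 0.000353). In cTKO mice the levels were 144 ± 9.41 and 205 ± 13.2 CPM (log2 FC 0.50, SE 0.070, FDR = 0.00012). The groups did not overlap in either genotype. Ypel5 (0.074) and Large (0.091) had the smallest root mean square difference to Lrpap1.

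Both ligands were higher in the hippocampus in both genotypes. Apoe was 1161 ± 135 CPM in neocortex and 1831 ± 247 CPM in hippocampus of controls (log2 FC 0.65, SE 0.093, FDR = 2.57e-05), and every hippocampal library was above every neocortical one. In cTKO mice it was 1044 ± 193 and 1535 ± 356 CPM (log2 FC 0.54, SE 0.164, FDR = 0.0178), and the groups overlapped. Clu was 849 ± 93.1 and 1111 ± 104 CPM in controls (log2 FC 0.38, FDR = 0.000616) without overlap. In cTKO mice it was 855 ± 166 and 1161 ± 190 CPM (log2 FC 0.43, FDR = 0.0265), with overlap, and the FDR rose to between 0.0615 and 0.0690 without hippocampus library 1 or neocortex library 1, 2 or 5 and to 0.0970 without both libraries that stood apart.

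Markers of the cells that make these ligands differed between regions as well. In controls 5 of 6 astrocyte markers were higher in the hippocampus and 1 was lower, and their sum ran from 1314 to 1518 CPM in neocortex and from 2098 to 2651 CPM in hippocampus. The 2 genes most like Apoe over the 20 libraries were Aldoc, at a root mean square difference of 0.113, and Slc1a3, at 0.135. For Clu they were Slc9a3r1, at 0.102, and Gpr37l1, at 0.131. Choroid plexus markers (Ttr, Kl, Folr1, Clic6, Kcnj13 and Otx2) summed to 8.86 to 17.4 CPM in neocortex, to 76.7 to 2700 CPM in control hippocampus and to 113 to 601 CPM in cTKO hippocampus. The control hippocampus library with the highest sum, library 3, held the lowest Clu of its group, at 1035 CPM, close to 1037 CPM in library 4 and 1042 CPM in library 1. The part of these cells in the regional differences of Apoe and Clu was not tested.

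**Figure D5:**
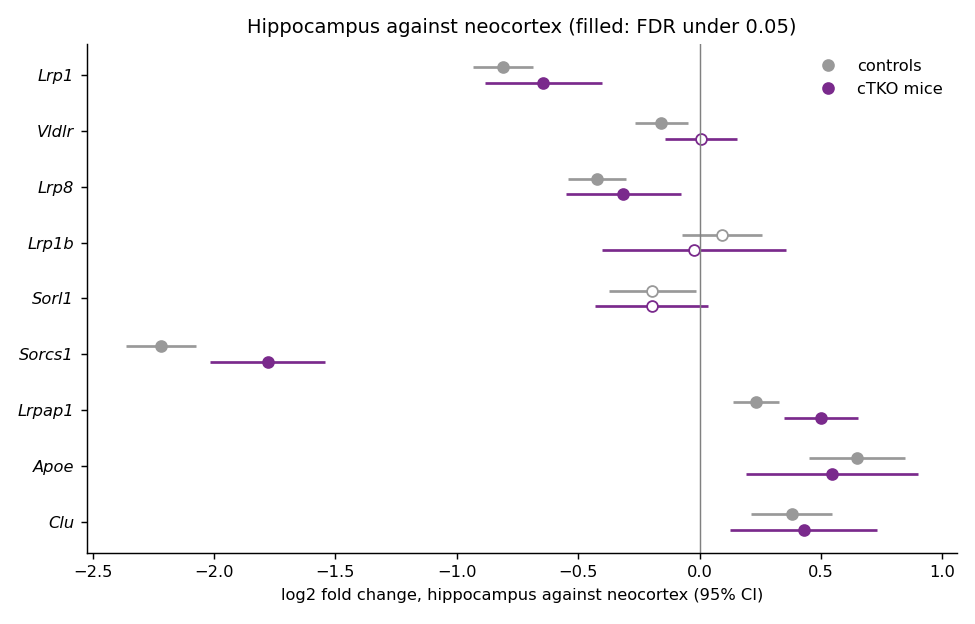
Log2 fold change of each member in hippocampus against neocortex, with 95% confidence intervals, in controls and in cTKO mice, and filled points for an FDR under 0.05. Sorcs1 lies farthest from 0, at -2.22 in controls and -1.78 in cTKO mice, and Lrpap1, Apoe and Clu lie above 0 in both genotypes.

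The other genes of these pathways were taken from 7 lists. By genotype, 1 gene of any list passed an FDR of 0.05. Lrp12, a relative of the LDL receptor, rose in cTKO hippocampus from 56.2 ± 2.95 to 72.3 ± 7.18 CPM (log2 FC 0.37, FDR = 0.0447). Its control libraries reached at most 59.5 CPM and its cTKO libraries began at 67.4 CPM. The call did not hold with the replicate block (FDR = 0.0811), with Xist as a covariate (FDR = 0.0654) or in 8 of the 10 fits that left out 1 library (FDR of up to 0.136). Between genotypes that block matches libraries by their number alone. The others of the 11 LDL receptor relatives, the 3 other VPS10P receptors, 15 retromer, sorting nexin and GGA adaptor genes, 8 genes of reelin signalling, 11 genes of apolipoproteins and lipid transport, 8 further LRP1 ligands and 8 genes of receptor folding and turnover had no member past the threshold in either region.

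Between regions, counts of the lists stand beside the shares of all genes given above, 29.4% higher and 29.5% lower in controls and 20.2% higher and 21.1% lower in cTKO mice. Of 15 trafficking genes, 11 were higher and 1 lower in controls, and 8 were higher and 1 lower in cTKO mice, with a median log2 FC of 0.21 and 0.22. Vps29, a core subunit of the retromer, had a log2 FC of 0.67 in controls and 0.61 in cTKO mice, and the sorting nexin Snx1 0.45 and 0.53. Gga3, an adaptor that directs cargo from endosomes, was the gene that was lower, at -0.40 and -0.38. Of the 3 other VPS10P receptors (Sort1, Sorcs2 and Sorcs3), 1 was lower in controls and none passed in cTKO mice. Sorcs3, the closest relative of Sorcs1 in that list, was at 53.4 CPM in neocortex and 45.2 CPM in hippocampus of controls (log2 FC -0.25, FDR = 0.0106), and is named here after its values were seen.

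Among the LDL receptor relatives 3 were higher and 3 lower in controls, and 3 higher and 2 lower in cTKO mice. Of 11 genes, these counts are near the shares of all genes. Lrp10 (log2 FC 0.44 and 0.45 in controls and cTKO mice) and Lrp11 (0.40 and 0.33) were higher, and Ldlrad4 (-1.02 and -0.87) and Lrp3 (-0.25 and -0.21) were lower in the hippocampus. Lrp2 had under 1 CPM on average in the neocortex of both genotypes and was not tested by genotype there.

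Reelin signalling gave differences in both directions. Its ligand Reln had a log2 FC of -0.82 in controls and -0.83 in cTKO mice, a direction shared with the receptor Lrp8. Of the 8 genes, 4 were higher and 2 lower in controls, and 3 higher and 2 lower in cTKO mice, beside the same shares of all genes. The adaptor Crk had a log2 FC of 0.34 and 0.35 and the kinase Src 0.26 and 0.43, while the exchange factor Rapgef1 was lower, at -0.23 and -0.18.

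Genes of lipid transport and further ligands were read beside these shares as well. Lpl, the lipoprotein lipase, rose from 19.2 to 60.4 CPM in controls (log2 FC 1.63) and from 22.4 to 64.1 CPM in cTKO mice (log2 FC 1.50), neocortex first. Lcat, which esterifies cholesterol on lipoproteins, had a log2 FC of 0.70 and 0.69, and the lipid transporter Abca7 one of -0.70 and -0.72. Of the 8 genes tested in that list, 3 were higher and 2 lower in controls, and 2 higher and 1 lower in cTKO mice. Of the 8 further ligands 5 were higher and 1 lower in controls, and 3 higher and 1 lower in cTKO mice. The protease inhibitor A2m had a log2 FC of 2.49 and 2.35 at levels of 1.21 to 10.5 CPM, the protease Plat 0.44 and 0.67, and the growth factor Ptn -0.17 and -0.31. Of 7 folding and turnover genes tested, 2 were higher and none lower in either genotype. These were Mesdc2, a chaperone of LDL receptor relatives (0.31 and 0.36), and Mylip, the ubiquitin ligase that directs LDL receptor, VLDLR and LRP8 to degradation (0.29 and 0.34).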

How the data were processed

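Total RNA was poly-A selected, made into Illumina TruSeq libraries and read as 100-base single ends, and the study mapped the reads to mm10 with STAR 2.5.4a and counted them with HTSeq. The deposited values are raw counts per gene symbol, 1 table per library, with no normalisation by the authors. The annotation behind the counts and the HTSeq strand setting are not given in the sources used here, so reads of overlapping antisense genes cannot be told apart. Exons of Lrp1b, Sorl1 and Sorcs1 overlap other annotated genes over 99, 185 and 213 bases, and none of those genes is counted.

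The 9 members and all gene lists were chosen with earlier results of these data known. Each comparison was fitted over all genes that exceeded 1 CPM in 5 or more libraries, with edgeR 4.0.16 in R 4.3.3 (TMM, quasi-likelihood test, FDR by Benjamini-Hochberg over all genes tested) and read for the members. CPM and RPKM used TMM-scaled totals of all 20 libraries and, for RPKM, merged GENCODE exons. Log2 CPM (prior count 2) entered exact permutation tests over 252 splits. Named from the lists were genes past the FDR in a genotype comparison and, between regions, the 2 largest differences in each direction past it in both genotypes. Alternatives were the edgeR exact and likelihood ratio tests, DESeq2 1.42.0 without independent filtering, its size factors, other filters, a joint fit, a replicate block, Xist as a covariate and left-out libraries. Scripts were tested on simulated counts. The main fits did not pair the regions, and the replicate block was run as an alternative. In controls, deviations of same-numbered libraries of the 2 regions correlated for every pair (r = 0.129 to 0.334, 14192 genes). In cTKO mice, numbers 4 and 5 did not (r = -0.057 and -0.071), although the study took both regions from the same mice, and between genotypes not all pairs did. Xist was high in libraries 1 and 3 of both control groups and 3 and 5 of both cTKO groups, and under 1 CPM in the others. Promoter sequences are from RefSeq (GRCm38.p6) and protein sequences were not used here. Figures used matplotlib 3.10.9.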

Additional observations from a re-analysis of the deposited data

Results flagged for a closer look

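In 80 sets of 5 libraries (9 members and 11 marker sums in 4 groups), an extreme library was set apart from the others by more than 0.71 of the whole range on the log2 scale in 4 sets, and chance alone gives about 1 in 20. None of these was a member. In cTKO neocortex library 5, embryonic markers summed to 996 CPM, against 60.8 to 119 CPM in the other libraries of its group, pericyte and fibroblast markers to 286 CPM, against 132 to 149 CPM, and interneuron markers to 890 CPM, against 1114 to 1170 CPM. In control neocortex library 1, embryonic markers summed to 65.1 CPM, against 117 to 148 CPM. On that scale the embryonic marker sum of cTKO hippocampus library 4 (611 CPM, against 49.6 to 171 CPM) and the choroid plexus marker sum of control hippocampus library 3 (2700 CPM, against 76.7 to 493 CPM) stayed under this limit. cTKO neocortex library 5 held the lowest Lrpap1 (128 CPM), Apoe (813 CPM) and Clu (723 CPM) of its group.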

How the results depend on the processing

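With 5 libraries a group, a difference as small as that of most members between genotypes cannot be separated from 0, and single calls near the threshold turned with 1 library. By genotype in the hippocampus, 1 member passed the FDR, and 2 did (Sorcs1 and Lrpap1) with the edgeR exact test, the likelihood ratio test, DESeq2, the joint fit of all 20 libraries and without cTKO hippocampus library 4, which stood apart. Without single libraries the number ran from 0 to 2. In the neocortex and for the interaction it was 0 under every alternative and without every single library. Between regions it was 6 to 8 in controls and 4 to 6 in cTKO mice over all alternatives. The matching counts over all genes were 7123 of 13832 (joint fit) to 8682 of 19231 (no filter) in controls. In cTKO mice they were 4848 of 13718 (without neocortex library 2) to 6824 of 13846 (joint fit). Over all genes, 26 passed in the neocortex, against 167 with the exact and likelihood ratio tests, 221 with DESeq2, 42 without a filter, 17 in the joint fit and 12 with the replicate block. In the hippocampus 67 passed, against 257 with the exact test, 259 with the likelihood ratio test, 331 with DESeq2 and 195 in the joint fit, and for the interaction 8, against 26 with the likelihood ratio test or DESeq2 and 18 with the block. Without single libraries, the neocortex gave 120 without cTKO library 3, 133 without cTKO library 5 and 7 to 15 without any other. The hippocampus gave 149 without cTKO library 5, 31 without cTKO library 2, 15 to 39 without a control library and 55 to 71 without cTKO library 1, 3 or 4. The interaction gave 5 to 20, with 15 and 20 without cTKO hippocampus libraries 3 and 5 and 5 without control hippocampus library 1 or 2 or cTKO neocortex library 1. The cause was not tested.

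The replicate block left 0 members past the threshold in the neocortex and for the interaction, 1 in the hippocampus (Sorcs1, FDR = 0.0404) and 6 between regions in cTKO mice, and changed no other call of a member than that of Sorl1 between regions in controls (8 members). Over all genes the block passed 8468 of 13832 between regions in controls and 5803 of 13846 in cTKO mice. Between genotypes the libraries share only a number. In cTKO mice the regions share animals, but no source used here says that the numbers mark them, and libraries 4 and 5 did not correlate best with their own number.

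Sign changes occurred for differences near 0. For Lrp1b in the neocortex the log2 FC was -0.0016 without a filter, -0.019 with the block, -0.018 with Xist as a covariate and -0.055 to 0.14 without single libraries. Without cTKO hippocampus library 4, which stood apart, it was -0.026 for Lrp1 in the hippocampus. Without both libraries that stood apart it was -0.0099 for Vldlr between regions in cTKO mice (-0.0016 in the joint fit), and the interaction was -0.075 for Sorl1 and -0.032 for Clu. Without single libraries the ranges in the neocortex were -0.12 to 0.0032 for Sorl1, -0.10 to 0.080 for Clu, -0.046 to 0.0062 for Vldlr and -0.0058 to 0.052 for Lrpap1. In the hippocampus they were -0.037 to 0.081 for Lrp1 and -0.013 to 0.15 for Clu, and between regions in cTKO mice -0.023 to 0.050 for Vldlr and -0.15 to 0.074 for Lrp1b. For the interaction they were -0.070 to 0.062 for Sorl1, -0.037 to 0.18 for Clu and -0.22 to 0.011 for Apoe. Of 36 ranks by RPKM, 30 were kept with the longest transcript as length. All 36 were kept without TMM scaling, which multiplies all genes of a library by the same factor and so can hardly change them. The exact permutation test reached its smallest p in 12 of 36 member comparisons with either prior count (2 or 0.5). Of these, 7 were between regions in controls, 3 between regions in cTKO mice, 2 between genotypes in the hippocampus and 0 in the neocortex. That p needs groups that do not overlap. By genotype, 3.01% of all genes tested had such groups in the hippocampus and 2.39% in the neocortex. Between regions no such share is given here, so the 7 and 3 cannot be read as a trait of the members. By the FDR, 59.0% of all genes tested passed between regions in controls and 41.3% in cTKO mice.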
